A study of Rattus norvegicus with 23 samples.

Results

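The genes described here are the autophagy machinery and its cargo receptors in rat kidney cells. They are a list of 38 genes taken by symbol, which was chosen with earlier results of these data known. A row was found for 37 of them among the 30452 genes of the table, and the same 37 are among the 14777 genes that passed the filter on low counts, while Atg4a was not analysed here. NRK-52E cells (labelled NRKE, epithelial) and NRK-49F cells (labelled NRKF, fibroblasts) are permanent lines from normal rat kidney, so each line stands for 1 established culture and not for separate animals. Both were grown as monocultures in DMEM with serum, were then kept for 24 h without serum, and were incubated for 48 h at pH 7.4 (control) or at pH 6.0, which was set with HCl. The serum withdrawal is shared by the controls and the acid-exposed cells. NRK-52E cells were sequenced in n = 6 samples at each pH, and NRK-49F cells in n = 6 control and n = 5 acid-exposed samples. The labels put the samples of each line into 2 sample groups, 1 and 3 for NRK-52E and 4 and 6 for NRK-49F, each with both pH values. The labels do not say whether the samples of a group were separate cultures or days, so the p-values measure the spread between these samples, part of which may be technical.

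Macroautophagy encloses portions of the cytoplasm in a double membrane, the autophagosome, which then fuses with a lysosome, where the content is digested. A kinase complex around Ulk1 starts the process, a lipid kinase complex around Becn1 marks the membrane, lipid carriers and scramblases let it grow, and ubiquitin-like conjugation attaches proteins of the Atg8 family to it, where cargo receptors bind. In the kidney tubule, autophagy is known for the removal of damaged mitochondria and lysosomes and for protection during acute injury. Most steps are regulated on the protein level by phosphorylation and lipidation, so transcript levels show the supply of the components and not the flux through the pathway.

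The libraries held 16412564 to 34250535 counts. Levels are given as FPM, read counts scaled to a common library size that was adjusted with TMM, the trimmed mean of M values, and ± is the SD over samples. FPM are not divided by gene length, so levels are compared between samples and not between genes. Replicate A035, an NRK-52E sample at pH 7.4, stood apart from the other 5 samples of its group in 10.9% of all tested genes by Dixon's criterion, against at most 3.36% for any other replicate, and values without it are given where it was the sample apart and a result turns on it. Of the 7 listed epithelial markers, only Krt8 passed the filter, and it was lower in NRK-52E cells (499 ± 76.4 FPM at pH 7.4) than in NRK-49F cells (839 ± 193 FPM). Cdh1, with a mean of 0.160 FPM, and Epcam, with 0.00758 FPM, were near 0 in NRK-52E cells at pH 7.4, so these defining epithelial markers were near absent from the line labelled epithelial. Of 7 fibroblast markers, 6 were lower and 1 was higher in NRK-52E than in NRK-49F cells at pH 7.4, with a median log2 fold change of -7.20. All 7 were past 1 in size. Their summed level was 4897 to 8102 FPM in NRK-52E and 10248 to 13248 FPM in NRK-49F controls, a sum that does not show the gaps of the single markers. Among them, Pdgfra had 306 FPM in NRK-49F cells and 1.83 FPM in NRK-52E cells at pH 7.4, where it was highest in replicate A021 with 4.73 FPM.

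To show the regulatory sequence in front of members whose changes stand out below, the 250 bases before the annotated start of 6 genes are printed 5′ to 3′ in the direction of the gene. Sqstm1 (chr10:35037751-35038000, minus strand), Wipi1 (chr10:95079294-95079543, minus strand) and Wipi2 (chr12:17053307-17053556, minus strand) are the 3 members with the largest rises in NRK-52E cells among those that averaged 5 FPM or more, and Map1lc3b (chr19:66574345-66574594, plus strand) went in opposite directions in the lines. Vmp1 (chr10:72002320-72002569, minus strand) differed most between the lines at pH 7.4, and Atg4d (chr8:28083686-28083935, plus strand) had the largest fall in NRK-52E cells. The sequences are from RefSeq on the assembly GRCr8, and 33 of the 37 members have an entry among the promoters used here. Capitals mark the core of the antioxidant response element (TGACNNNGC on either strand).
Sqstm1: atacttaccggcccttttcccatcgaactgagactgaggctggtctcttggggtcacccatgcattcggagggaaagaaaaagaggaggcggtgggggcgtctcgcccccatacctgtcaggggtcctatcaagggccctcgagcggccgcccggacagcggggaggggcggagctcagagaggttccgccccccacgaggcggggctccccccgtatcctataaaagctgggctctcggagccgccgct
Wipi1: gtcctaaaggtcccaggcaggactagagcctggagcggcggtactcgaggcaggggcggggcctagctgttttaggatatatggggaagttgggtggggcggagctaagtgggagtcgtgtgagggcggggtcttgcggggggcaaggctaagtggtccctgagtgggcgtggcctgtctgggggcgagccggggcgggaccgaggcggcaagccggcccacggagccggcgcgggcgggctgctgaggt
Wipi2: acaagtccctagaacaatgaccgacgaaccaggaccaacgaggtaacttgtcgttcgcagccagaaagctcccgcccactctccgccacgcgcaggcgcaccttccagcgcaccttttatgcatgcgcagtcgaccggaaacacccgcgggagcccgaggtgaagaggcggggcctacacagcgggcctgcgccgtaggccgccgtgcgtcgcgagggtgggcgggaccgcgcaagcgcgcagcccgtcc
Map1lc3b: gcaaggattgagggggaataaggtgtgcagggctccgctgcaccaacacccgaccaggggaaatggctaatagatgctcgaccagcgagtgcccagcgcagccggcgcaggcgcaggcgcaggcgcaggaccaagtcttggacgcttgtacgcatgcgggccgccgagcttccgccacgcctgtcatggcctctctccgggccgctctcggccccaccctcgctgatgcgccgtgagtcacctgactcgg
Vmp1: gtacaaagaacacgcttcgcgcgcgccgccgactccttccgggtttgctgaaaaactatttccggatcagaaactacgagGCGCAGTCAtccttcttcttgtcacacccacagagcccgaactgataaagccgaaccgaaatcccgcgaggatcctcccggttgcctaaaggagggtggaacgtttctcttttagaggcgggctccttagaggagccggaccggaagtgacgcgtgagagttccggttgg
Atg4d: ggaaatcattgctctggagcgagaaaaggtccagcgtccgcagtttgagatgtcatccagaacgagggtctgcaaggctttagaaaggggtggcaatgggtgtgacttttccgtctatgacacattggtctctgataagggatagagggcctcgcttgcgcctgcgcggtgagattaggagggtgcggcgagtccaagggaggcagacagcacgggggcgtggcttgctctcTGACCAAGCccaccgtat
On both strands of these windows, 3 sets of letters were searched, and no match of one set shared bases with a match of another in the member windows. The first, CACGTG, the E-box core bound by the MiT/TFE family of lysosomal transcription factors and by other bHLH factors, occurs in 5.59% of 33469 promoters of the same length and in 2 of the 33 member promoters, those of Atg3 and Atg5. TGATGNAA, one part of the composite site of ATF4 and C/EBP factors, occurs in 3.4% of promoters and in no member's window. TGACNNNGC occurs in 10.1% of promoters and in 5 of the 33, those of Atg10, Atg4d, Gabarap, Ulk2 and Vmp1. Of these 5 members, Vmp1 was higher and Atg4d and Atg10 were lower in NRK-52E cells at pH 6.0, and Gabarap and Ulk2 did not pass the threshold. Such matches describe letters in a window and not binding.

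At pH 6.0, 15 of the 37 members (40.5%) were higher in NRK-52E cells, against 24.7% of all tested genes, and 4 (10.8%) were lower, against 36.6% of all tested genes. In either direction these are 51.4% of the members and 61.2% of all tested genes. A call here and throughout is an adjusted p under 0.05 in the quasi-likelihood test of edgeR, adjusted by Benjamini-Hochberg over all 14777 tested genes, and SE is the standard error. The median log2 fold change of the members was 0.24, or 0.15 without A035, and that of all tested genes was -0.12 in both cases. With the fit centred on the median gene, 21 members were higher and 3 lower, against 30.4% and 31% of all tested genes. In NRK-49F cells at that pH, 9 members (24.3%) were higher and 2 (5.41%) lower, against 14.5% and 14.4% of all tested genes, and the median log2 fold change was -0.09 for the members and 0.00 for all tested genes. The members' median was -0.02 without A052, -0.04 without A041 and -0.05 without A042 or A043. With each line scaled and fitted alone, NRK-49F cells had 7 higher and 4 lower members, against 16.4% and 16.8% of the genes tested there. Called members whose log2 fold change was past 1 in size were 3 in NRK-52E (Atg9b, Sqstm1 and Wipi2) and 1 in NRK-49F (Atg9b), next to 25% and 8.29% of all tested genes. Atg9b passed the filter on low counts through its samples at pH 6.0, since every control of both lines was under the 0.504 FPM that 10 counts give in the median library. Its rise lends no support to these counts, which without it are 14 higher members in NRK-52E, 8 in NRK-49F, 5 in both lines, and 2 past 1 in NRK-52E, with none in NRK-49F.

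**Figure D1:**
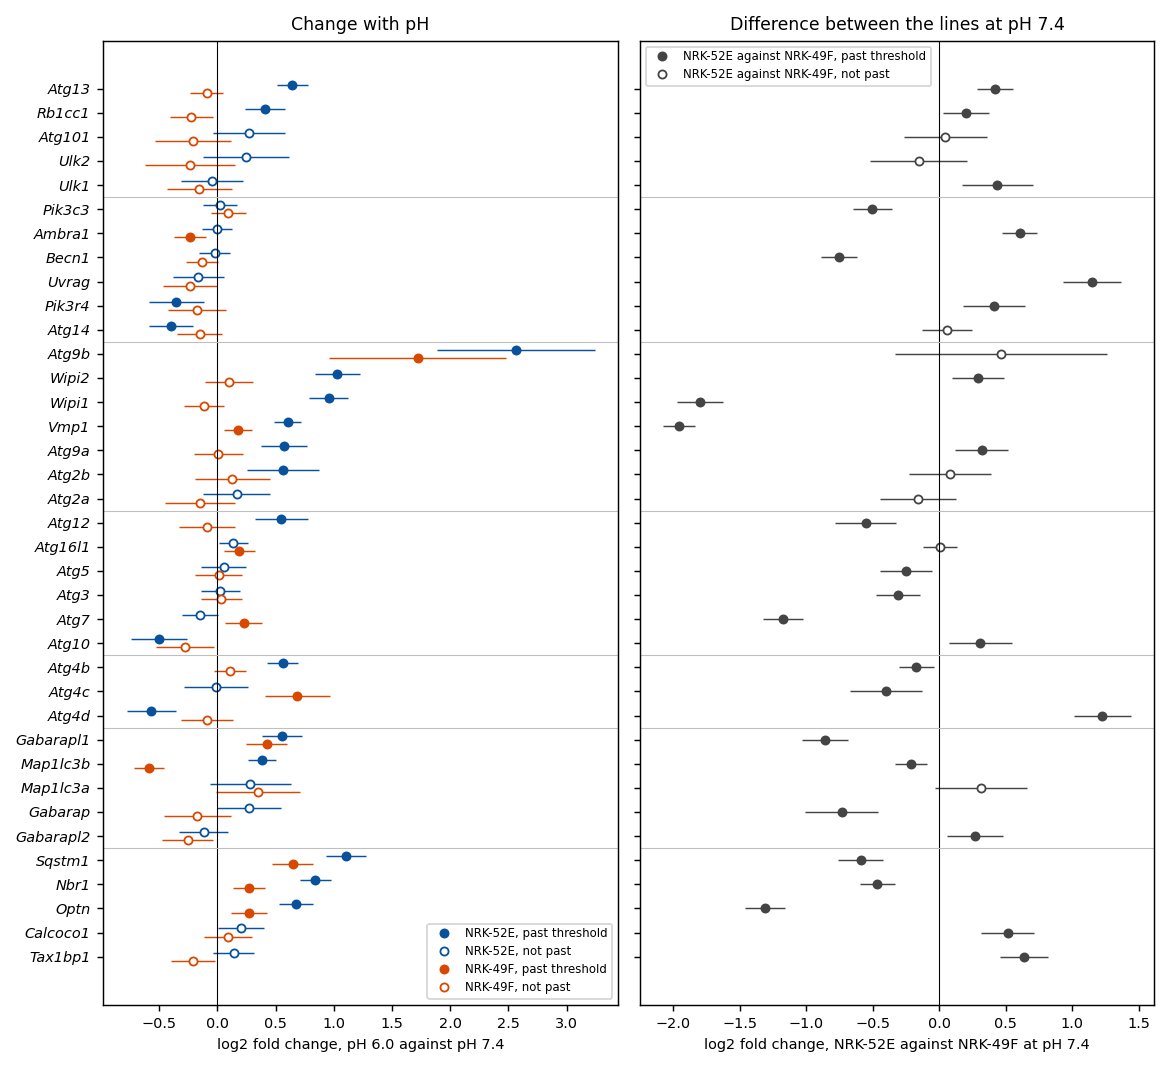
Log2 fold changes of pH 6.0 against pH 7.4 (horizontal axis) in rows, with NRK-52E in blue and NRK-49F in orange on the left, and log2 fold changes of NRK-52E against NRK-49F at pH 7.4 on the right, for the 37 members grouped by role. Bars show 95% intervals and filled points passed the threshold. On the left, 15 blue filled points lie right of 0 and 4 left of it, and 9 and 2 orange ones do, while on the right 13 lie right of 0 and 16 left of it.

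Both lines shared 6 members that were higher in each of them (Atg9b, Gabarapl1, Sqstm1, Nbr1, Optn and Vmp1), while 6.94% of all tested genes were higher in both. A single member, Map1lc3b, was higher in NRK-52E and lower in NRK-49F cells, a pattern of 1.25% of all tested genes. By the same test of edgeR, 0 members were lower in both lines and 0 were lower in NRK-52E and higher in NRK-49F cells, patterns of 9.39% and 2.94% of all tested genes. At an unadjusted p under 0.05 these counts were 1 and 0, and in DESeq2 both were 0. Between the pH values the samples did not overlap for 15 members (40.5%) in NRK-52E cells and for 10 (27%) in NRK-49F cells, close to 38.6% and above 20.6% of all tested genes. In bulk samples, fewer cells of a type and less RNA per cell cannot be told apart.

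Cargo receptors were among the members that rose in both lines. Of 5 receptors, Sqstm1, Nbr1 and Optn were higher at pH 6.0 in NRK-52E and in NRK-49F cells, against 6.94% of all tested genes. Calcoco1 and Tax1bp1 did not pass the threshold in either line, although each passed in 1 line with the sample group as a block. Sqstm1 (ENSRNOG00000003147, chromosome 10) encodes p62, which binds ubiquitinated cargo and hands it to the Atg8 proteins. In NRK-52E cells, its lowest, median and highest samples had 521, 575 and 599 FPM at pH 7.4 and 1033, 1203 and 1419 FPM at pH 6.0, so that every acid-exposed sample lay above every control. The means were 564 ± 32.9 and 1211 ± 165 FPM, a 2.15-fold higher level with a log2 fold change of 1.10 (SE 0.087, adjusted p = 1.58e-10). Within the acid-exposed NRK-52E samples, the 3 of sample group 3 were all above the 3 of sample group 1, and the log2 fold change was 0.87 within group 1 and 1.32 within group 3.
In NRK-49F cells, Sqstm1 had 781, 842 and 934 FPM in the lowest, median and highest control, and 1474, 1276, 1363, 1358 and 1181 FPM in the 5 samples at pH 6.0. Again no acid-exposed sample reached down to the controls. The means were 849 ± 53 and 1330.4 ± 109 FPM, with a log2 fold change of 0.65 (SE 0.09, adjusted p = 6.1e-06). In the test of the difference, the rise was larger in NRK-52E cells by 0.46 (SE 0.12, adjusted p = 0.00502). Starting from a lower control level, NRK-52E cells at pH 6.0 reached 1033 to 1419 FPM, a range that overlaps the 1181 to 1474 FPM of NRK-49F cells at pH 6.0.
Nbr1 (ENSRNOG00000020730, chromosome 10), a receptor of related build for ubiquitinated cargo, had 179, 217 and 229 FPM in the lowest, median and highest NRK-52E control and 350.3, 381 and 408 FPM at pH 6.0. The lowest control was A035, and all acid-exposed samples were above all controls. On the log2 scale, the change was 0.84 (SE 0.067, adjusted p = 1.99e-10), with means of 213 ± 17.9 and 381 ± 22.3 FPM. In NRK-49F cells it had 271, 297 and 310.0 FPM in the lowest, median and highest control and 337, 350.5, 372, 336 and 379 FPM in the samples at pH 6.0. These also did not overlap, and the log2 fold change was 0.27 (SE 0.07, adjusted p = 0.00463), from 294 ± 15.4 to 355 ± 19.5 FPM. Within the sample groups of NRK-49F cells Nbr1 did not pass, with 0.23 (adjusted p = 0.112) in group 4 and 0.30 (adjusted p = 0.0644) in group 6. Its change was larger in NRK-52E cells by 0.57 (SE 0.097, adjusted p = 5.09e-05).
Optn (ENSRNOG00000017941, chromosome 17), a receptor for damaged mitochondria and for bacteria, had 37.9, 47.3 and 49.5 FPM in the lowest, median and highest NRK-52E control and 62.9, 72.4 and 83.2 FPM at pH 6.0. For NRK-49F, the values were 103, 112 and 121 FPM in the controls and 135, 131, 141, 132 and 140.5 FPM at pH 6.0. The pH values did not overlap in either line. Its log2 fold change was 0.67 (SE 0.076, adjusted p = 5.29e-08) in NRK-52E cells and 0.27 (SE 0.078, adjusted p = 0.0112) in NRK-49F cells, and the difference was 0.40 (adjusted p = 0.00453). Within group 4 of NRK-49F cells Optn did not pass (log2 fold change 0.22, adjusted p = 0.119). Its difference did not pass within groups 3 and 6 (log2 difference 0.36, adjusted p = 0.0538).
Tax1bp1 (ENSRNOG00000008393, chromosome 4), another ubiquitin-binding receptor, had 379, 424 and 446 FPM in the lowest, median and highest NRK-52E control and 368, 462 and 539.8 FPM at pH 6.0. The acid-exposed samples of NRK-52E cells fell into their sample groups, with means of 388 FPM in group 1 and 529 FPM in group 3. In NRK-49F cells Tax1bp1 had 255, 268 and 286 FPM in the controls and 256, 219, 234, 238 and 210.2 FPM at pH 6.0. Its log2 fold changes were 0.14 (adjusted p = 0.191) and -0.21 (adjusted p = 0.102), and their difference of 0.35 passed the threshold (adjusted p = 0.0359). In NRK-49F cells Tax1bp1 was lower with the sample group as a block (log2 fold change -0.21, adjusted p = 0.0214) and with the line fitted alone (log2 fold change -0.22, adjusted p = 0.0197), and in NRK-52E cells it was higher with the fit centred on the median gene (log2 fold change 0.26, adjusted p = 0.0157). The call of the difference between the lines was lost when any one of the replicates A022, A023, A036, A037, A038, A041, A043, A053 and A056 was left out, with an adjusted p of up to 0.0677. Calcoco1, a receptor for the endoplasmic reticulum, had 240.1 ± 33.3 and 276 ± 25.6 FPM in NRK-52E cells at pH 7.4 and 6.0, and its log2 fold change was 0.20 (adjusted p = 0.0881). Calcoco1 passed as higher in NRK-52E cells with the sample group as a block (log2 fold change 0.20, adjusted p = 0.043), in DESeq2 (adjusted p = 0.0396), with RLE scaling (adjusted p = 0.0451), with the line fitted alone (adjusted p = 0.0179), with the fit centred on the median gene (adjusted p = 0.00797), and without A022 (adjusted p = 0.0488) or A023 (adjusted p = 0.0465). In NRK-49F cells it was 0.09 (adjusted p = 0.557).

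**Figure D2:**
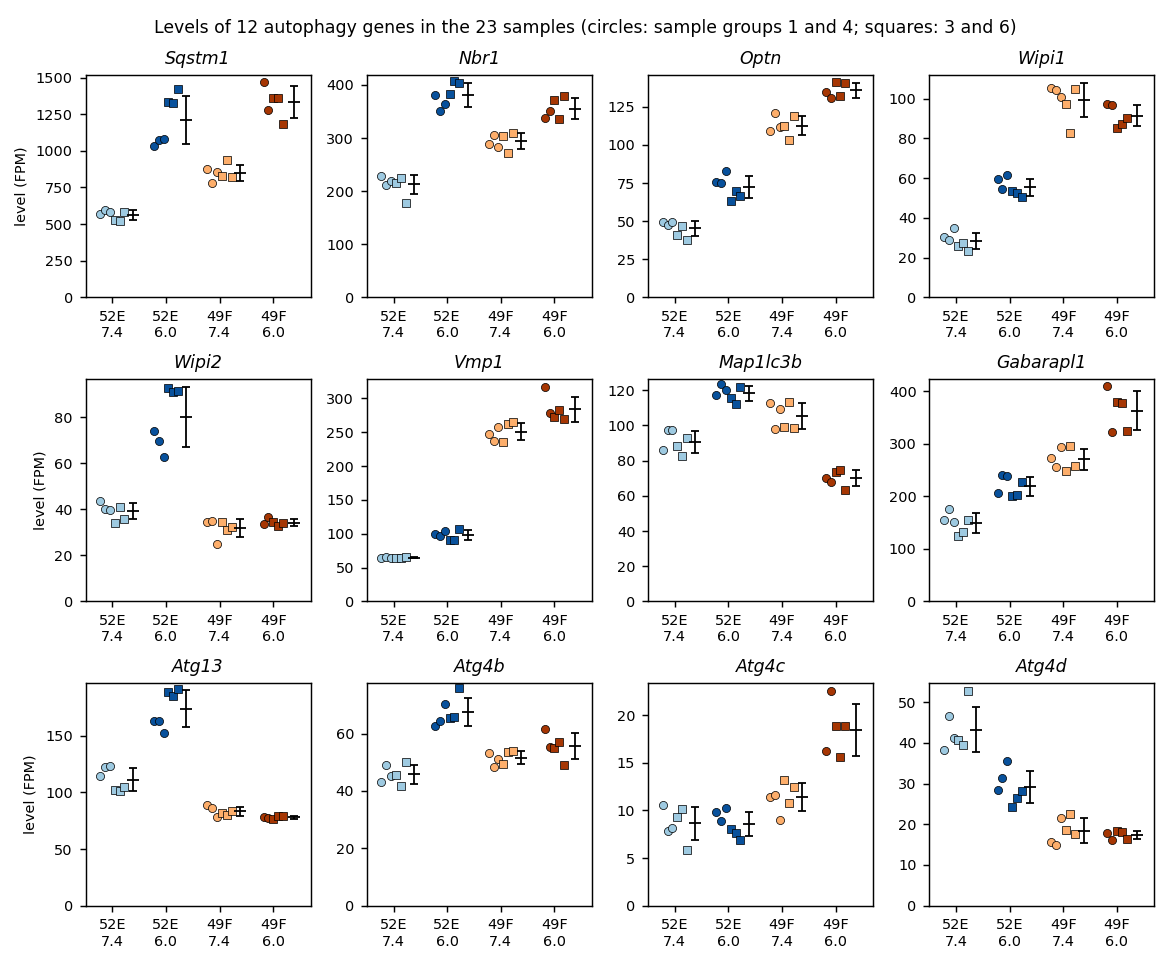
Levels in FPM (vertical axes) by line and pH, with 1 point per sample, the marker shape giving the sample group, and the mean with its SD beside the points. The members drawn are Sqstm1, Nbr1, Optn, Wipi1, Wipi2, Vmp1, Map1lc3b, Gabarapl1, Atg13, Atg4b, Atg4c and Atg4d. They are a selection that leaves out Atg10, Atg14, Pik3r4 and Ambra1, which are among the largest falls. The acid-exposed NRK-52E samples of Sqstm1, Wipi1, Wipi2 and Nbr1 lie above all their controls, and Map1lc3b rises in NRK-52E and falls in NRK-49F cells.

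The Atg8 family, the ubiquitin-like proteins that are attached to the growing membrane and bind the receptors, held genes that passed the test in either direction and genes that did not. Of its 5 genes, 2 were higher in NRK-52E cells (Map1lc3b and Gabarapl1), against 24.7% of all tested genes. In NRK-49F cells Gabarapl1 was higher and Map1lc3b lower, against 14.5% and 14.4% of all tested genes. Since reads that map to several places were counted, values of such related genes may hold shared reads.
Map1lc3b (ENSRNOG00000017905, chromosome 19) encodes LC3B, the protein most used as a marker of autophagosomes. In NRK-52E cells it had 82.3, 90.5 and 97.3 FPM in the lowest, median and highest control and 112, 118 and 123 FPM at pH 6.0. The NRK-49F controls had 98.1, 104 and 113 FPM and the acid-exposed samples 70.3, 67.6, 73.3, 74.8 and 63.4 FPM. In both lines the pH values were fully separated, upwards in NRK-52E cells and downwards in NRK-49F cells. Acid exposure went with a log2 fold change of 0.38 (SE 0.062, adjusted p = 1.16e-05) in NRK-52E cells and -0.59 (SE 0.066, adjusted p = 3.42e-07) in NRK-49F cells. The difference of 0.97 (SE 0.091, adjusted p = 1.51e-08) was the one with the smallest adjusted p among the members. Within the sample groups the change was 0.37 (adjusted p = 0.00515) in group 1, 0.41 (adjusted p = 0.00249) in group 3, -0.63 (adjusted p = 0.00122) in group 4 and -0.56 (adjusted p = 0.00143) in group 6. At pH 7.4 the means were 90.6 ± 6.13 FPM in NRK-52E and 105.2 ± 7.27 FPM in NRK-49F cells (log2 fold change -0.21, SE 0.062, adjusted p = 0.00401).
Gabarapl1 (ENSRNOG00000053362, chromosome 4), of the GABARAP branch of the family, had 125, 153 and 176 FPM in the lowest, median and highest NRK-52E control and 199.7, 216 and 241 FPM at pH 6.0. NRK-49F controls were at 247, 266 and 296 FPM and NRK-49F samples at pH 6.0 at 409, 323, 379.8, 377 and 325 FPM. No acid-exposed sample overlapped a control of its line. The log2 fold changes were 0.56 (SE 0.086, adjusted p = 6.13e-06) and 0.42 (SE 0.09, adjusted p = 0.000889), and their difference of 0.13 did not pass the threshold (95% interval -0.11 to 0.38, adjusted p = 0.427).
Gabarap (ENSRNOG00000017417, chromosome 10) had 266, 289 and 399 FPM in the lowest, median and highest NRK-52E control and 314, 363 and 416 FPM at pH 6.0. NRK-49F cells had 409.8, 471 and 663 FPM without acid and 619.6, 359.6, 425, 498 and 337 FPM with it. The highest NRK-52E control was A035 and the highest acid-exposed NRK-49F sample was A042, and the pH values overlapped in both lines. Its log2 fold change was 0.27 (adjusted p = 0.0942) in NRK-52E cells, or 0.36 (adjusted p = 0.0247) without A035, and -0.17 (adjusted p = 0.409) in NRK-49F cells. In NRK-52E cells it also passed as higher in DESeq2 (adjusted p = 0.0463), with the line fitted alone (adjusted p = 0.00673) and with the fit centred on the median gene (adjusted p = 0.0175). The difference was 0.45 (adjusted p = 0.0805) over all samples, 0.54 (adjusted p = 0.0288) without A035 and 0.59 (adjusted p = 0.0137) without A042. That difference also passed in DESeq2 (adjusted p = 0.0387), with RLE scaling (adjusted p = 0.0483) and with the fit centred on the median gene (adjusted p = 0.027).
Map1lc3a (ENSRNOG00000025443, chromosome 3) encodes LC3A. It had 89.4, 101 and 162 FPM in the lowest, median and highest NRK-52E control and 98.4, 134 and 176 FPM at pH 6.0. For NRK-49F, the values were 69.6, 82.5 and 117 FPM in the controls and 167, 91.3, 99.2, 121 and 83.2 FPM at pH 6.0. As for Gabarap, A035 was the highest NRK-52E control and A042 the highest acid-exposed NRK-49F sample. The log2 fold change was 0.28 (adjusted p = 0.168) in NRK-52E cells, 0.43 (adjusted p = 0.0292) without A035, and 0.35 (adjusted p = 0.162) in NRK-49F cells, where the CV at pH 6.0 was 30.1%. In NRK-52E cells Map1lc3a also passed as higher with the line fitted alone (adjusted p = 0.0479) and with the fit centred on the median gene (adjusted p = 0.0495).
Gabarapl2 (ENSRNOG00000019425, chromosome 19), also called GATE-16, had 129, 145 and 190.0 FPM in the lowest, median and highest NRK-52E control and 119, 135 and 163 FPM at pH 6.0. The NRK-49F controls had 107, 121 and 146 FPM and the acid-exposed samples 122, 88.7, 107, 112 and 87.2 FPM. The pH values overlapped in both lines, with log2 fold changes of -0.12 (adjusted p = 0.347) and -0.26 (adjusted p = 0.0925). Without A042 the value in NRK-49F cells was -0.32 (adjusted p = 0.0467). Gabarapl2 overlaps Adat1 in the RefSeq annotation, no source used here names how strand was handled in counting, and Adat1 had log2 fold changes of 1.26 and 0.50.

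**Figure D3:**
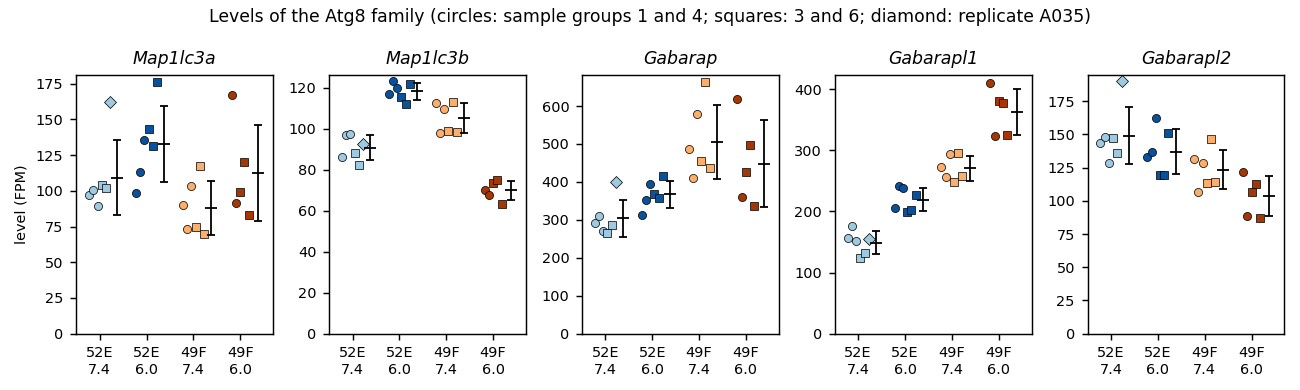
Levels in FPM (vertical axes, from 0) of the 5 genes of the Atg8 family by line and pH, with 1 point per sample, the mean and SD beside the points, and replicate A035 drawn as a diamond. Map1lc3b separates the pH values upwards in NRK-52E and downwards in NRK-49F cells, Gabarapl1 upwards in both, and for the other 3 genes the pH values overlap.

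Genes for the supply and growth of the membrane held more of the rises in NRK-52E cells than any other role, also without Atg9b. Of 7 such genes, 6 were higher at pH 6.0 in NRK-52E cells (Wipi1, Wipi2, Vmp1, Atg9a, Atg9b and Atg2b), against 24.7% of all tested genes. In NRK-49F cells 2 were higher (Vmp1 and Atg9b), against 14.5% of all tested genes. Atg9b passed the filter through its samples at pH 6.0, so its rise lends no support to these counts. The median log2 fold change of the 7 genes was 0.60 in NRK-52E cells, with Atg9b among them. Wipi1 (ENSRNOG00000003827, chromosome 10) and Wipi2 (ENSRNOG00000001114, chromosome 12) encode proteins that read the lipid mark on the new membrane, and Wipi2 brings the conjugation complex to it. Wipi1 had 23.5, 28.1 and 34.9 FPM in the lowest, median and highest NRK-52E control and 50.6, 53.9 and 61.4 FPM at pH 6.0. NRK-49F controls were at 82.7, 103 and 106 FPM and NRK-49F samples at pH 6.0 at 97.3, 96.8, 85.5, 87.4 and 90.2 FPM. All acid-exposed NRK-52E samples were above their controls, while the NRK-49F samples overlapped.
The log2 fold change of Wipi1 was 0.96 (SE 0.086, adjusted p = 1.29e-09) in NRK-52E cells and -0.12 (SE 0.088, adjusted p = 0.34) in NRK-49F cells, and their difference of 1.08 (SE 0.12, adjusted p = 2.57e-07) was the largest among the members that passed that test. It held within both sample groups of NRK-52E cells, with 0.90 in group 1 and 1.03 in group 3. Even at pH 6.0 the NRK-52E mean of 55.3 ± 4.21 FPM stayed below the NRK-49F control mean of 99.3 ± 8.65 FPM, with no overlap of samples. In the RefSeq annotation Wipi1 overlaps Arsg, which did not pass the filter on low counts.
Wipi2 had 34.2, 40.1 and 43.8 FPM in the lowest, median and highest NRK-52E control and 62.8, 82.3 and 92.9 FPM at pH 6.0. NRK-49F cells had 24.7, 33.5 and 34.8 FPM without acid and 33.4, 36.5, 34.7, 32.6 and 34.1 FPM with it. Here too the NRK-52E samples separated by pH and the NRK-49F samples did not. On the log2 scale, the change was 1.03 (SE 0.10, adjusted p = 5.12e-09) in NRK-52E and 0.10 (SE 0.11, adjusted p = 0.537) in NRK-49F cells, a difference of 0.93 (SE 0.15, adjusted p = 1.69e-05). As for Sqstm1, the acid-exposed NRK-52E samples of group 3 (mean 91.7 FPM) were above those of group 1 (mean 68.7 FPM), and the log2 fold changes were 1.30 and 0.74.
Vmp1 (ENSRNOG00000003967, chromosome 10) encodes a lipid scramblase of the endoplasmic reticulum needed for autophagosome formation. It had 64, 64.2 and 65.8 FPM in the lowest, median and highest NRK-52E control and 90.1, 98.5 and 107 FPM at pH 6.0. For NRK-49F, the values were 236, 252 and 265 FPM in the controls and 316, 278, 272, 283 and 269 FPM at pH 6.0. The controls of NRK-52E cells were very alike (CV 1.3%), and in both lines all acid-exposed samples were above all controls. Acid exposure went with a log2 fold change of 0.60 (SE 0.06, adjusted p = 6.8e-09) in NRK-52E cells. That of NRK-49F cells was 0.18 (SE 0.062, adjusted p = 0.0341) and lost the call without A039, A040, A042, A051 or A055, with an adjusted p of up to 0.116, and with the line fitted alone (log2 fold change 0.17, adjusted p = 0.0617). Within the sample groups of NRK-49F cells Vmp1 did not pass, with 0.26 (adjusted p = 0.065) in group 4 and 0.11 (adjusted p = 0.447) in group 6.
Atg9a, a scramblase on the vesicles that seed the membrane, had 87.1 ± 13.5 and 129.6 ± 15.6 FPM in NRK-52E cells at pH 7.4 and 6.0, without overlap. Its log2 fold change was 0.57 (SE 0.10, adjusted p = 3.45e-05) there and 0.01 (adjusted p = 0.978) in NRK-49F cells, a difference of 0.57 (adjusted p = 0.00344). Its relative Atg9b was close to the limit of detection, with 3 to 11 counts per NRK-52E control and 19 to 59 counts at pH 6.0. NRK-52E cells had 0.168, 0.312 and 0.491 FPM in the lowest, median and highest control and 0.937, 1.89 and 2.57 FPM at pH 6.0, and NRK-49F cells had 0, 0.255 and 0.300 FPM in the controls and 0.815, 0.793, 0.890, 0.613 and 0.611 FPM at pH 6.0. The fitted log2 fold changes of 2.56 and 1.72 are a description, since Atg9b entered the fit through the samples in which it was high. Atg9b overlaps Nos3 in the RefSeq annotation, and Nos3 had log2 fold changes of -0.36 (adjusted p = 0.562) and 2.27 (adjusted p = 0.0558), so reads of both genes cannot be told apart without strand. Of the lipid carriers that feed the membrane, Atg2b had 36.9 ± 7.11 FPM in the NRK-52E controls and rose to 54.5 ± 5.90 FPM (log2 fold change 0.56, SE 0.16, adjusted p = 0.00345), and its lowest control was A035, without which the log2 fold change was 0.46 (adjusted p = 0.009). The change was 0.37 (adjusted p = 0.136) within group 1 and 0.78 (adjusted p = 0.00808) within group 3, and in NRK-49F cells it was 0.13 (adjusted p = 0.604). Atg2a was at 0.16 (adjusted p = 0.338) in NRK-52E and -0.15 (adjusted p = 0.515) in NRK-49F cells.

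In the complex that starts autophagy, 2 of 5 genes were higher in NRK-52E cells at pH 6.0, against 24.7% of all tested genes. In NRK-49F cells the smallest adjusted p of the 5 genes in edgeR's test was 0.0779, that of Rb1cc1. Atg13, the adaptor that the nutrient-sensing kinase mTORC1 keeps phosphorylated, rose from 111 ± 10.2 to 174 ± 16.3 FPM in NRK-52E cells (log2 fold change 0.64, SE 0.069, adjusted p = 2.41e-08), without overlap. In NRK-49F cells it had 83.1 ± 4.02 and 78 ± 1.11 FPM (log2 fold change -0.09, adjusted p = 0.372), and the difference between the lines was 0.74 (adjusted p = 2.97e-06). Within group 1 of NRK-52E cells the change was 0.42 and within group 3 it was 0.88. Rb1cc1, the scaffold FIP200, rose from 65.6 ± 6.58 to 87.1 ± 4.22 FPM in NRK-52E cells (log2 fold change 0.41, SE 0.089, adjusted p = 0.000335), without overlap. In NRK-49F cells it was at -0.22 (adjusted p = 0.0779), and it passed as lower there without A052 (log2 fold change -0.28, adjusted p = 0.024) or A056 (log2 fold change -0.27, adjusted p = 0.0428). The difference of 0.63 (adjusted p = 0.000376) passed the threshold. The kinases themselves had log2 fold changes of -0.05 (adjusted p = 0.777) for Ulk1 and 0.24 (adjusted p = 0.265) for Ulk2 in NRK-52E cells. Their NRK-49F values were -0.16 (adjusted p = 0.447) and -0.24 (adjusted p = 0.398). Atg101, which stabilizes Atg13, had 68.7 ± 12.8 and 82.8 ± 14.6 FPM in NRK-52E cells (log2 fold change 0.27, adjusted p = 0.143), with A035 as the highest control. Without A035 it passed as higher (log2 fold change 0.38, adjusted p = 0.0362), as did the difference between the lines (log2 difference 0.59, adjusted p = 0.0334), which over all samples was 0.48 (adjusted p = 0.0978). The difference of Atg101 also passed without A042 (log2 difference 0.64, adjusted p = 0.0196) and with the fit centred on the median gene (log2 difference 0.60, adjusted p = 0.0386). In NRK-52E cells Atg101 also passed as higher with that centred fit (adjusted p = 0.0351) and with the line fitted alone (adjusted p = 0.0276).

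The lipid kinase complex makes the phosphoinositide that marks the site of growth. Of its 6 genes with their regulators, Atg14 and Pik3r4 were lower in NRK-52E cells, where 36.6% of all tested genes were lower. Ambra1 was lower in NRK-49F cells, where 14.4% of all tested genes were lower. The difference between the lines stayed short of the threshold for all 6 in edgeR's test as used throughout. Ambra1 passed the test of the difference in DESeq2 (log2 difference 0.29, adjusted p = 0.00967), and Atg14 (log2 difference -0.24, adjusted p = 0.0477) and Ambra1 (log2 difference 0.24, adjusted p = 0.0447) passed it with the sample group as a block. In edgeR, Ambra1 also passed it with RLE scaling (adjusted p = 0.0252), thinned libraries (adjusted p = 0.0457) and the fit centred on the median gene (adjusted p = 0.00488). The same held without A023 (adjusted p = 0.0412), A038 (adjusted p = 0.0179) or A039 (adjusted p = 0.0381). Atg14 (ENSRNOG00000011873, chromosome 15), the subunit that sends the complex to autophagosome formation, had 24.9, 31.7 and 35.8 FPM in the lowest, median and highest NRK-52E control and 19, 24 and 27.2 FPM at pH 6.0. The samples overlapped across the sample groups but not within them, and the log2 fold change was -0.40 (SE 0.096, adjusted p = 0.000968). It was -0.39 within group 1 and -0.40 within group 3. In NRK-49F cells Atg14 was at -0.15 (adjusted p = 0.274), with 28.5, 29.8 and 31.2 FPM in the controls and 26.8, 25.9, 25.3, 25.9 and 30.3 FPM at pH 6.0.
Pik3r4 (ENSRNOG00000013669, chromosome 8), the scaffold subunit Vps15, had 37.9, 56.4 and 57.3 FPM in the lowest, median and highest NRK-52E control and 37.2, 42.1 and 46.2 FPM at pH 6.0. The lowest control was A035, and the other 5 controls were above every acid-exposed sample. Its log2 fold change was -0.35 (SE 0.12, adjusted p = 0.0134), and without A035 it was -0.43 (adjusted p = 0.00151). It was -0.53 (adjusted p = 0.0154) within group 1 and -0.17 (adjusted p = 0.378) within group 3, the group that holds A035, and the call was lost with the fit centred on the median gene (log2 fold change -0.23, adjusted p = 0.0969). In NRK-49F cells Pik3r4 had 34.4, 41.7 and 43.8 FPM in the controls and 23.7, 39, 37.8, 33.8 and 43.6 FPM at pH 6.0 (log2 fold change -0.18, adjusted p = 0.324). It overlaps Rpl29 in the RefSeq annotation, a ribosomal protein gene with a mean of 1297 FPM. Rpl29 had log2 fold changes of -0.22 (adjusted p = 0.295) in NRK-52E and 0.22 (adjusted p = 0.417) in NRK-49F cells. Whether its reads enter the values of Pik3r4 was not tested.
Ambra1 (ENSRNOG00000017422, chromosome 3), a regulator that binds Becn1, had 38.6, 42.9 and 45.3 FPM in the lowest, median and highest NRK-49F control and 33.7, 37.9, 36.5, 33.9 and 38.9 FPM at pH 6.0. Only the control A039 and the acid-exposed sample A056 overlapped, and the log2 fold change was -0.24 (SE 0.071, adjusted p = 0.0137). Within the sample groups it did not pass, with -0.21 (adjusted p = 0.211) in group 4 and -0.26 (adjusted p = 0.0872) in group 6. In NRK-52E cells it had 60.9, 64.5 and 70.6 FPM in the controls and 55.1, 65.8 and 69.4 FPM at pH 6.0, with a log2 fold change of 0.00 (adjusted p = 0.976). The catalytic subunit Pik3c3 was at 0.02 (adjusted p = 0.833) in NRK-52E and 0.09 (adjusted p = 0.4) in NRK-49F cells, and Becn1 at -0.02 (adjusted p = 0.782) and -0.13 (adjusted p = 0.179). Uvrag, the subunit of the complex that acts in endosomes, was at -0.16 (adjusted p = 0.205) and -0.23 (adjusted p = 0.143). With the sample group as a block, Uvrag was lower in NRK-49F cells (log2 fold change -0.24, adjusted p = 0.0473). In NRK-52E cells the change of Uvrag was 0.02 (adjusted p = 0.927) within group 1 and -0.39 (adjusted p = 0.0083) within group 3. Becn1 overlaps Cntd1 in the RefSeq annotation, which was not among the tested genes.

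The conjugation enzymes, which couple Atg12 to Atg5 and the Atg8 proteins to a lipid, moved one by one. Of 6 genes, Atg12 was higher and Atg10 lower in NRK-52E cells, against 24.7% and 36.6% of all tested genes. Atg7 and Atg16l1 were higher in NRK-49F cells, against 14.5% of all tested genes. Atg12, the ubiquitin-like tag of the complex, had 31.2 to 40.7 FPM in the NRK-52E controls and 39.8 to 67.1 FPM at pH 6.0, an overlap across the sample groups. Its log2 fold change was 0.55 (SE 0.12, adjusted p = 0.00028) in NRK-52E cells, 0.37 within group 1 and 0.69 within group 3, and -0.09 (adjusted p = 0.619) in NRK-49F cells. The difference between the lines was 0.64 (adjusted p = 0.00386).
Atg10 (ENSRNOG00000016342, chromosome 2), the enzyme that passes Atg12 on to Atg5, had 12.1, 13.8 and 18 FPM in the lowest, median and highest NRK-52E control and 8.14, 9.61 and 14.2 FPM at pH 6.0. One acid-exposed sample, A038, was above most controls, and the others were below all of them. The log2 fold change was -0.50 (SE 0.12, adjusted p = 0.00107). In NRK-49F cells Atg10 had 10.2, 11.7 and 12.3 FPM in the controls and 10.2, 8.54, 9.57, 9.78 and 9.11 FPM at pH 6.0 (log2 fold change -0.28, adjusted p = 0.11), and with that line fitted alone it passed as lower (log2 fold change -0.29, adjusted p = 0.0249).
Atg7, the enzyme that activates both ubiquitin-like proteins, had 31.9 ± 2.17 and 37.2 ± 2.59 FPM in NRK-49F cells (log2 fold change 0.23, SE 0.08, adjusted p = 0.0363) and 14.1 ± 1.08 and 12.7 ± 1.08 FPM in NRK-52E cells (log2 fold change -0.15, adjusted p = 0.101). The difference between the lines was -0.38 (adjusted p = 0.00935), and with the fit centred on the median gene -0.25 (adjusted p = 0.073). It did not pass within groups 1 and 4 (log2 difference -0.49, adjusted p = 0.0837) or within groups 3 and 6 (log2 difference -0.28, adjusted p = 0.121). Atg16l1, which places the conjugation on the membrane, rose from 44.1 ± 1.60 to 50.3 ± 3.11 FPM in NRK-49F cells (log2 fold change 0.19, SE 0.068, adjusted p = 0.0407) and was at 0.14 (adjusted p = 0.0712) in NRK-52E cells, where it passed without A026 (log2 fold change 0.17, adjusted p = 0.0247). Both rises in NRK-49F cells sit close to the threshold. That of Atg7 was lost without A039, A040, A042, A043, A051, A053 or A055 (adjusted p up to 0.0917), and that of Atg16l1 without A041, A043, A051, A052, A053, A055 or A056 (adjusted p up to 0.106). The rise of Atg16l1 in NRK-49F cells was also lost with RLE scaling (adjusted p = 0.0592), upper-quartile scaling (adjusted p = 0.0631), the likelihood ratio test (adjusted p = 0.0513) and the line fitted alone (adjusted p = 0.0507). Neither gene passed within group 4 or group 6 alone. Atg5 was at 0.05 (adjusted p = 0.665) and 0.01 (adjusted p = 0.958), and Atg3, the enzyme that hands the Atg8 proteins to the lipid, at 0.02 (adjusted p = 0.83) and 0.03 (adjusted p = 0.819) in NRK-52E and NRK-49F cells.

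The Atg4 proteases, which cut the Atg8 proteins before conjugation and release them from membranes afterwards, each went their own way. Over all samples, the response of all 3 of those measured differed between the lines beyond the threshold, against 41.4% of all tested genes. Within sample groups 1 and 4 alone these differences did not pass edgeR's test, with adjusted p of 0.123 (Atg4b), 0.0707 (Atg4c) and 0.289 (Atg4d). Within groups 3 and 6 they passed. Atg4b, the family member with the broadest action, had 45.8 ± 3.28 FPM in the NRK-52E controls and rose to 67.4 ± 4.91 FPM (log2 fold change 0.56, SE 0.068, adjusted p = 1.75e-07), without overlap. In NRK-49F cells it was at 0.11 (adjusted p = 0.271), and the difference was 0.45 (adjusted p = 0.000726).
Atg4d (ENSRNOG00000047625, chromosome 8) fell in NRK-52E cells. Its lowest, median and highest samples had 38.3, 40.9 and 52.8 FPM at pH 7.4 and 24.3, 28.3 and 35.6 FPM at pH 6.0, without overlap, and the log2 fold change was -0.57 (SE 0.11, adjusted p = 7.86e-05). In NRK-49F cells Atg4d had 14.9, 18.1 and 22.4 FPM in the controls and 17.8, 16, 18.2, 18 and 16.4 FPM at pH 6.0, where the samples overlapped (log2 fold change -0.09, adjusted p = 0.609). The change in NRK-52E minus that in NRK-49F cells was -0.48 (SE 0.16, adjusted p = 0.0176), which did not pass with the fit centred on the median gene (log2 difference -0.36, adjusted p = 0.0731). Its neighbour Kri1, which overlaps it in the RefSeq annotation, had a log2 fold change of 0.10 (adjusted p = 0.297) in NRK-52E cells.
Atg4c (ENSRNOG00000008767, chromosome 5) rose in NRK-49F cells, where the controls had 8.99, 11.5 and 13.2 FPM in the lowest, median and highest sample and the acid-exposed samples had 16.3, 22.6, 18.8, 15.6 and 18.8 FPM. In NRK-52E cells the values were 5.89, 8.73 and 10.5 FPM at pH 7.4 and 6.86, 8.49 and 10.2 FPM at pH 6.0. The NRK-49F samples separated by pH and the NRK-52E samples did not. On the log2 scale, the change was 0.69 (SE 0.14, adjusted p = 0.000721) in NRK-49F cells and -0.01 (SE 0.14, adjusted p = 0.954) in NRK-52E cells, and the difference of -0.70 (adjusted p = 0.00689) passed the threshold. Within group 4 the rise was 0.86 (adjusted p = 0.0092) and within group 6 it was 0.55 (adjusted p = 0.0553).

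When the difference between both pH responses was itself tested, 13 members (35.1%) had a higher change in NRK-52E than in NRK-49F cells and 3 (8.11%) a lower one, against 16.8% and 24.7% of all tested genes. In either direction these are 43.2% of the members and 41.4% of all tested genes. With the fit centred on the median gene, 16 members had a higher and 1 a lower change, against 21.7% and 19.9% of all tested genes. Within sample groups 1 and 4 alone, 7 and 0 members passed in edgeR's test (2 had a lower change at an unadjusted p under 0.05), and within groups 3 and 6, 12 and 2 did, against 8.11% and 13.2%, and 15.5% and 22.6%, of the genes tested in those fits. The 13 members are Rb1cc1, Atg13, Atg4b, Atg9a, Atg12, Wipi1, Wipi2, Map1lc3b, Sqstm1, Nbr1, Optn, Tax1bp1 and Vmp1, and the 3 are Atg4c, Atg4d and Atg7. All 16 differences had the same sign in both pairs of sample groups, which was likely in advance since they were called over these same samples. For Sqstm1 the difference was 0.16 (adjusted p = 0.523) within groups 1 and 4 and 0.73 (adjusted p = 0.00218) within groups 3 and 6.

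The lines also differed before the acid exposure. At pH 7.4, 13 members (35.1%) were higher and 16 (43.2%) lower in NRK-52E than in NRK-49F cells, against 35% and 33.9% of all tested genes. In either direction these are 78.4% of the members and 68.8% of all tested genes. For 19 members (51.4%) the samples of the lines did not overlap, against 50.7% of all tested genes. The share of higher members and that without overlap were close to those of all genes. Among those lower in NRK-52E cells, the widest gap was that of Vmp1, with a log2 fold change of -1.96 (SE 0.061, adjusted p = 3.89e-18) from 251 ± 12.5 FPM in NRK-49F to 64.7 ± 0.822 FPM in NRK-52E cells. Wipi1 followed with -1.80 (SE 0.087, adjusted p = 5.36e-15) and Optn with -1.31 (SE 0.076, adjusted p = 1.5e-13). Atg7, the activating enzyme, was lower by a similar extent, with -1.18 (SE 0.078, adjusted p = 1.88e-12) and 14.1 ± 1.08 against 31.9 ± 2.17 FPM. For each of these 4 genes the highest NRK-52E control was below the lowest NRK-49F control.
In the other direction, Atg4d was higher in NRK-52E cells by 1.23 (SE 0.11, adjusted p = 4.48e-10), Uvrag by 1.15 (SE 0.11, adjusted p = 2.3e-09) and Tax1bp1 by 0.64 (SE 0.091, adjusted p = 1.1e-06), again without overlap. Uvrag (ENSRNOG00000016206, chromosome 1) had 66.4, 79.4 and 86.7 FPM in the lowest, median and highest NRK-52E control and 32.6, 35.4 and 39.6 FPM in NRK-49F cells. At pH 6.0 it had 56.4, 69.6 and 88.6 FPM in NRK-52E cells and 25.3, 33.9, 31.8, 27.9 and 32.8 FPM in NRK-49F cells, so that the lines stayed apart. Of the lipid kinase complex, Becn1 (log2 fold change -0.76, adjusted p = 4.6e-10) and Pik3c3 (log2 fold change -0.50, adjusted p = 1.74e-06) were lower and Ambra1 (log2 fold change 0.61, adjusted p = 2.01e-08) and Pik3r4 (log2 fold change 0.41, adjusted p = 0.00393) higher in NRK-52E cells. Of the Atg8 family, Gabarapl1 (log2 fold change -0.86, adjusted p = 3.62e-09), Gabarap (log2 fold change -0.73, adjusted p = 5.93e-05) and Map1lc3b (log2 fold change -0.21, adjusted p = 0.00401) were lower. Sqstm1 (log2 fold change -0.59, adjusted p = 1.52e-06), Nbr1 (log2 fold change -0.47, adjusted p = 1.21e-06), Atg12 (log2 fold change -0.56, adjusted p = 0.000193), Atg3 (log2 fold change -0.31, adjusted p = 0.00259) and Atg4c (log2 fold change -0.40, adjusted p = 0.0135) were lower as well, and Atg13 (log2 fold change 0.42, adjusted p = 8.11e-06), Calcoco1 (log2 fold change 0.51, adjusted p = 8.94e-05), Ulk1 (log2 fold change 0.44, adjusted p = 0.00625), Atg9a (log2 fold change 0.32, adjusted p = 0.00772) and Wipi2 (log2 fold change 0.29, adjusted p = 0.0128) higher. Several calls here hang on single samples. Gabarapl2 (log2 fold change 0.27, adjusted p = 0.0285) lost its call without A035, A040, A051, A053 or A056, Atg10 (log2 fold change 0.31, adjusted p = 0.0283) without A035, A040, A051 or A056, Atg4b (log2 fold change -0.17, adjusted p = 0.0273) without A021, A034, A039 or A053, and Atg5 (log2 fold change -0.25, adjusted p = 0.0307) without A022, A023 or A052, with adjusted p values of up to 0.0982, 0.0878, 0.0735 and 0.0835. Rb1cc1 (log2 fold change 0.20, adjusted p = 0.0472) kept its call in 8 of 23 such fits. Map1lc3a passed without A052 (log2 fold change 0.41, adjusted p = 0.048), against 0.31 (adjusted p = 0.121) over all samples.

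Every member called in NRK-52E cells, 19 in all, and every member called in NRK-49F cells, 11 in all, had the same sign in both sample groups of its line, with Atg9b among them. The calls were made over these same samples, so equal signs were likely in advance and are a description. The sizes differed more in NRK-52E cells, where Sqstm1, Wipi2, Atg13, Atg12 and Atg2b had the larger log2 fold change in group 3 and Atg9b in group 1 (2.98 against 2.12). Whether the changes differ between the sample groups was not tested. Within single sample groups, 14 members were higher and 4 lower in group 1, against 17.8% and 28.2% of the genes tested there. In group 3 they were 17 and 3, against 23.2% and 32.6%. In NRK-49F cells, 4 and 1 passed in group 4, which has only 2 acid-exposed samples, against 10.2% and 9.33% of the genes, and 3 and 1 in group 6, against 9.1% and 9.32%.

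**Figure D4:**
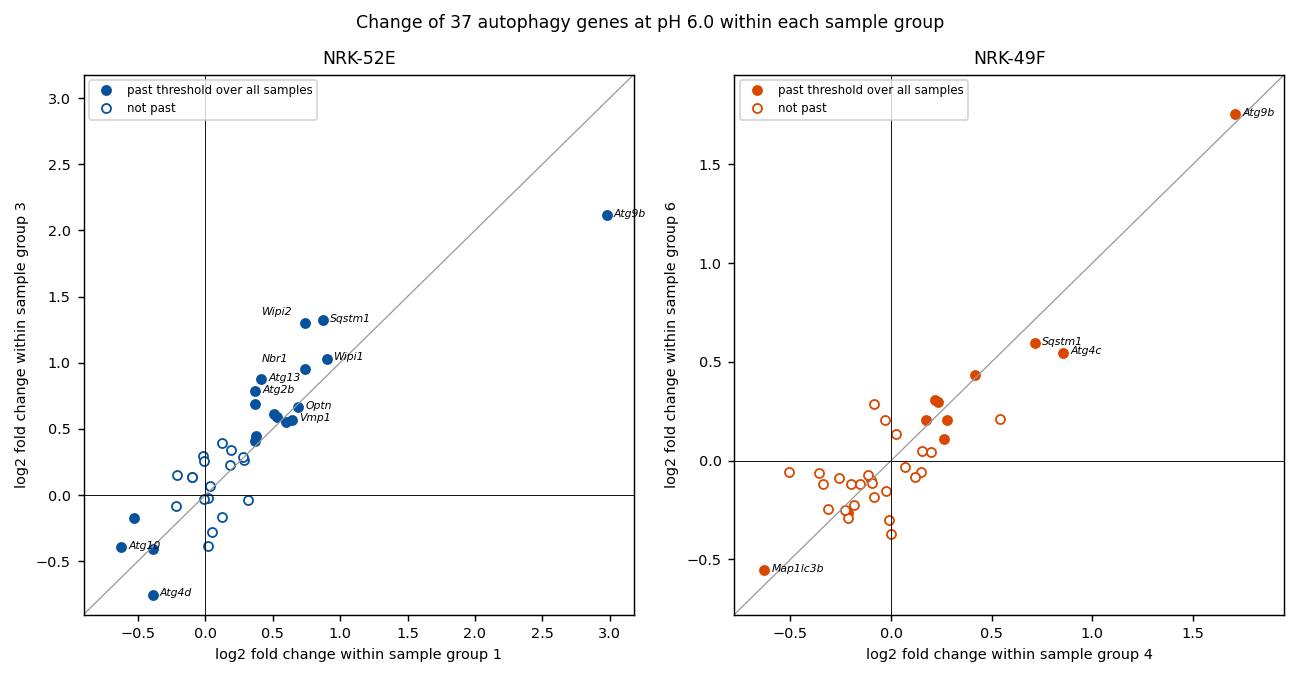
Log2 fold changes of pH 6.0 against pH 7.4 for the 37 members, within 1 sample group on the horizontal and within the other on the vertical axis, for NRK-52E cells (groups 1 and 3) and NRK-49F cells (groups 4 and 6), with filled points past the threshold over all samples and the diagonal as the line of equal change. All filled points, which were called over these same samples, lie in the lower left or upper right quadrant. Sqstm1, Wipi2 and Atg13 lie above the diagonal in NRK-52E cells.

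Genes around the core pathway were counted from 4 further lists, to be read against the 24.7% higher and 36.6% lower of all tested genes in NRK-52E and the 14.5% and 14.4% in NRK-49F. Of 29 tested genes for nutrient sensing and transcriptional control, 10 were higher (34.5%) and 10 lower (34.5%) in NRK-52E, and 4 (13.8%) and 6 (20.7%) in NRK-49F. Trib3, a pseudokinase induced by stress that inhibits Akt, rose most in both lines, from 20.7 ± 2.79 to 124 ± 49.7 FPM in NRK-52E cells (log2 fold change 2.58, SE 0.20, adjusted p = 1.73e-10) and from 9.56 ± 1.50 to 31.5 ± 5.78 FPM in NRK-49F cells (log2 fold change 1.72, SE 0.21, adjusted p = 1.14e-06). The largest falls were those of Mitf in NRK-52E cells, where it was low at 1.08 ± 0.461 FPM in the controls and 0.124 ± 0.0973 FPM at pH 6.0 (log2 fold change -3.04, adjusted p = 3.16e-07), and of Bcl2, which binds Becn1, in NRK-49F cells (log2 fold change -0.88, adjusted p = 0.00428).
Of 15 genes for the fusion with lysosomes, 7 were higher (46.7%) and 5 lower (33.3%) in NRK-52E, and 2 (13.3%) and 1 (6.67%) in NRK-49F. The SNARE Ykt6 rose from 81 ± 5.99 to 157 ± 28.8 FPM in NRK-52E cells (log2 fold change 0.96, SE 0.097, adjusted p = 9.93e-09), and Tecpr1 fell (log2 fold change -0.51, adjusted p = 0.0184). In NRK-49F cells Vps33a, of the tethering complex, was higher (log2 fold change 0.27, adjusted p = 0.0288), and the SNARE Snap29 fell from 26.6 ± 1.12 to 18.7 ± 1.34 FPM (log2 fold change -0.50, SE 0.07, adjusted p = 6.11e-06), without overlap.
Of 15 tested other core factors, 8 were higher (53.3%) and 2 lower (13.3%) in NRK-52E, and 3 (20%) and 1 (6.67%) in NRK-49F. Tp53inp1 (log2 fold change 2.14, adjusted p = 4.58e-05) rose and its relative Tp53inp2 (log2 fold change -1.59, adjusted p = 1.28e-08) fell most in NRK-52E cells, and those of NRK-49F cells were Sh3glb1 (log2 fold change 0.74, adjusted p = 7.74e-07), which rose, and Wdr45 (log2 fold change -0.25, adjusted p = 0.0466), which fell. Of 16 tested other selective receptors, 7 were higher (43.8%) and 4 lower (25%) in NRK-52E, and 2 (12.5%) and 2 (12.5%) in NRK-49F. Stbd1, a receptor for glycogen, rose from 23.6 ± 2.25 to 114 ± 53.7 FPM in NRK-52E cells (log2 fold change 2.28, SE 0.22, adjusted p = 5.8e-09) and from 26 ± 2.46 to 45.3 ± 11 FPM in NRK-49F cells (log2 fold change 0.80, SE 0.22, adjusted p = 0.00914). The mitochondrial receptor Fkbp8 fell most in NRK-52E cells (log2 fold change -0.74, adjusted p = 0.00038), and Retreg3, of the endoplasmic reticulum, in NRK-49F cells (log2 fold change -0.50, adjusted p = 3.51e-07).
Markers of other cell types moved with pH in the same samples. Of 3 immune markers, Cd68, which is also a lysosomal membrane protein, was the only one to pass the filter and rose in NRK-49F cells from 29.9 ± 4.21 to 229 ± 13.8 FPM (log2 fold change 2.94, adjusted p = 2.73e-09), while Ptprc was at 0 FPM there at pH 6.0. The summed level of the immune list was 21.6 to 33.1 FPM in NRK-49F controls and 217 to 251 FPM at pH 6.0. Of 7 fibroblast markers, 6 fell in NRK-52E and 3 in NRK-49F cells, with median log2 fold changes of -1.89 and -0.70. Their summed levels were 4897 to 8102 and 1830 to 3110 FPM at pH 7.4 and 6.0 in NRK-52E cells and 10248 to 13248 and 7001 to 9462 FPM in NRK-49F cells. Their part in the changes of the autophagy genes was not tested.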

How the data were processed

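Poly(A) RNA of 23 samples of rat NRK-52E and NRK-49F cells was sequenced, and samples were grouped by the line and pH of their labels. The deposited values are raw read counts per Ensembl gene, which the authors made with HISAT2 and featureCounts, counting multi-mapping reads on exons, without normalization. The submitters' processing notes name HISAT2 2.1.0 and the build rn6, while the paper's methods name rn7, and the strand setting is not given in the sources used here. A further 13 columns of the table could not be matched to a label and were not used.
All samples were fitted in a single model of 4 conditions without covariates in R 4.3.3 with edgeR 4.0.16 (filterByExpr keeping genes by min.count 10 and min.total.count 15, TMM, quasi-likelihood test, Benjamini-Hochberg adjustment, threshold 0.05). Total counts ranged from 16412564 to 34250535, and p-values and SDs cover the spread between samples. The SE was taken as the size of the log2 fold change over the root of its F statistic, and 95% intervals use the normal quantile. The steps were tested on simulated data.
The members, the further lists and the searched motifs were chosen with earlier results of these data known. Values by sample are given for the 4 largest rises and falls in each line among called members with a mean of at least 5 FPM, the 3 largest differences of the pH changes, the 3 largest line differences each way at pH 7.4, and the Atg8 family. Of the further lists, the genes with the largest rise and fall are named, while Atg2b, Atg7 and others are given with means. Libraries that stand apart were found by Dixon's criterion within each condition. DESeq2 1.42.0, RLE and upper-quartile scaling, centring on the median gene, the likelihood ratio test, other filters and thresholds, thinned libraries, single lines, sample groups and each replicate left out were tried as alternatives. Python 3.11.15 with matplotlib 3.10.9 drew the figures.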

Additional observations from a re-analysis of the deposited data

Results flagged for a closer look

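Single samples that stood apart from the rest of their condition by Dixon's criterion were found in 16 of 148 combinations of gene and condition (10.8%), against 7.98% over all tested genes and about 1 in 20 by chance. Replicate A035 (NRK-52E, pH 7.4) accounted for 7 of them, which is 18.9% of the members against 10.9% of all tested genes. It was the highest of its group for Atg101 (94.4 FPM), Gabarap (399 FPM), Gabarapl2 (189.95 FPM) and Map1lc3a (162 FPM), and the lowest for Atg2b (23.3 FPM), Nbr1 (179 FPM) and Pik3r4 (37.9 FPM). Replicate A052 (NRK-49F, pH 7.4) was the highest for Atg12 (64.8 FPM), Atg5 (49.1 FPM) and Becn1 (128 FPM) and the lowest for Wipi1 (82.7 FPM). In NRK-52E cells at pH 6.0, A038 was the lowest for Ambra1 (55.1 FPM) and the highest for Atg10 (14.2 FPM), and A025 was the lowest for Atg7 (10.5 FPM). Among the NRK-49F controls, A041 was the lowest for Wipi2 (24.7 FPM), and A053 held 0 counts of Atg9b (0 FPM).
For 16 members the change with pH differed between the lines in edgeR's test of the difference. With the NRK-49F value subtracted from that of NRK-52E, the log2 fold changes differed by 1.08 for Wipi1, 0.97 for Map1lc3b, 0.93 for Wipi2, 0.74 for Atg13, 0.64 for Atg12 and 0.63 for Rb1cc1. The difference was 0.57 for Nbr1, 0.57 for Atg9a, 0.46 for Sqstm1, 0.45 for Atg4b, 0.43 for Vmp1, 0.40 for Optn and 0.35 for Tax1bp1. Negative differences were those of Atg4c (-0.70), Atg4d (-0.48) and Atg7 (-0.38).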

How the results depend on the processing

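No called change of a member reversed its direction under any alternative tried. The numbers of higher and lower members in NRK-52E cells (15 and 4) stayed within 1.5 times under every alternative. In NRK-49F cells (9 higher, 2 lower), 4 members were lower with the line fitted alone and 4 with the sample group as a block. With that block, calls changed for Calcoco1 in NRK-52E cells, for Uvrag and Tax1bp1 in NRK-49F cells, and for Atg14 and Ambra1 in the difference, and no other of the tested calls of members changed. Within sample groups 1 and 4, NRK-49F cells had 4 higher and 1 lower, within groups 3 and 6 they had 3 and 1, and at an adjusted p under 0.01 they had 5 and 1. For the difference of the pH changes (13 higher, 3 lower), centring on the median gene left 1 lower, and groups 1 and 4 alone gave 7 higher and 0 lower. For the lines at pH 7.4 (13 higher, 16 lower), groups 3 and 6 alone gave 7 higher. With each replicate left out in turn, NRK-52E cells had 15 to 18 higher and 4 lower members, NRK-49F cells 6 to 9 and 2 to 3, the difference 12 to 15 and 3, and the lines at pH 7.4 10 to 13 and 15 to 16. Without A035, NRK-52E cells had 18 higher and 4 lower members. Fewer samples enter the fits of single sample groups. The filter of at least 10 counts in every sample gives no value for Atg9b, whose counts limit its precision. Where other causes of a changed call could be named, the cause was not tested. No paired analysis was possible because each replicate code belongs to a single sample.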
